A study of Homo sapiens with 12 samples.

Results

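The 48 genes described here encode the enzymes and carriers that make, recycle and break down nucleotides and that supply them with one-carbon units. They were taken as a list of symbols, and each symbol was matched to an Ensembl identifier of the deposited count table. All 48 symbols had 1 identifier each among the 57905 in the table, and 47 of them had enough reads to be tested, among 13832 tested identifiers. The exception was UPP1. The list was read as 10 genes of pyrimidine synthesis, 14 of phosphoribosyl pyrophosphate (PRPP) and purine synthesis, 14 of salvage and breakdown, and 10 of folate and methionine metabolism.

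RNA was measured in OCI-AML3, an established cell line from an acute myeloid leukaemia, as 3 libraries in each of 4 groups. In the first arm, the cells received SA at 500 µM or vehicle, in both cases for 6 days. The labels do not spell out SA, which in studies of heme commonly stands for succinylacetone, an inhibitor of the heme pathway enzyme ALAD. In the second arm, cells transduced with a guide RNA against ALAS1 (sgALAS1) or with sgSCR, a control guide by its name, were given doxycycline for 7 days, which switched the guide on. ALAS1 is the first enzyme of heme synthesis. No genetic change or doxycycline is given for the vehicle and SA cells, so sgSCR differed from vehicle in transduction, doxycycline and time together. Whether the guide cells were a pool or 1 clone, and whether replicates were separate cultures, is not given. The p-values therefore measure the spread between libraries, which may be technical.

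Purines are built step by step on PRPP, which the PRPS enzymes make, up to inosine monophosphate, from which adenine and guanine nucleotides branch. Pyrimidines start as a free ring made by CAD and DHODH and are joined to PRPP afterwards. Salvage enzymes return free bases and nucleosides to nucleotides, and the folate cycle carries one-carbon units, mostly from serine, to the purine ring, to thymidylate and to methionine. Rapidly dividing leukaemia cells are known to depend on these routes, which are targets of several anti-leukaemia drugs.

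Library totals ran from 4658513 to 7339843 reads (median 5573540). The libraries were made from the 3′ ends of polyadenylated transcripts, so 1 read stands for 1 transcript end whatever the gene's length, and levels are given as CPM (read counts scaled to a common library size) after TMM normalisation. Fold changes are on the log2 scale with their standard error (SE), and p-values are those of the quasi-likelihood test in edgeR, adjusted over all 13832 identifiers, with a threshold of 0.05. ALAS1 was at 38.6, 41.9 and 37.4 CPM in the 3 sgSCR libraries and at 26.2, 26.3 and 27.3 CPM in the 3 sgALAS1 libraries, where it fell by 0.56 (log2, SE 0.14, adjusted p = 0.00777). Without sgSCR replicate 2 its adjusted p was 0.0503. A 3′ read does not show whether the coding sequence was edited. Within a group, libraries correlated at 0.969 to 0.978 over the log2(CPM + 1) values of all tested genes. Among 11 tested myeloid markers, 4 rose with SA and 4 rose with sgALAS1, which is 36.4% in each arm. Of all tested genes, 4.83% and 4.88% were called higher. Values below 0 were found for 2 of these markers with SA, the lowest at -1.03, and for 1 with sgALAS1, and 0 were called lower. In sgSCR against vehicle, 1 of the 11 was called lower (9.09%, beside 0.962% of all tested genes). The sum of the list was 2193 to 2566 CPM in vehicle, 3157 to 3509 in SA, 2018 to 2240 in sgSCR and 2806 to 3032 in sgALAS1. It includes NPM1, which is not specific to myeloid cells. Levels differed widely within the list, with LYZ at 564 CPM on average in vehicle, MPO at 3.499 CPM and CLEC12A at 0. Erythroid and megakaryocyte markers summed to at most 1.59 CPM in any library and stromal and epithelial ones to at most 9.91 CPM. Lymphoid markers summed to 84.7 to 138 CPM, most of it NCAM1, with CD3E and CD2 at 0 in every library. Both tested lymphoid markers passed somewhere. CD3D fell with SA, from 72 to 112 reads a library to 3 to 7 (adjusted p = 5.45e-07), and with sgALAS1, from 26 to 34 reads to 0 in each library (2.9e-07), at least 27.3-fold lower against a floor of 3 reads over the group. NCAM1 rose by 0.68 (log2, adjusted p = 0.000253) with sgALAS1. The part of these markers in the values of the members was not tested. In bulk RNA, fewer cells of a kind and less RNA per cell cannot be told apart.

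In SA cells, 9 members of the list fell and 4 rose, and 34 did not pass the test. That is 27.7% of the 47 tested members, where 11.1% of all tested genes passed (4.83% higher and 6.24% lower). The members that fell were PRPS2, GART, PFAS and PAICS of purine synthesis, ADK, NT5E and ADA of salvage, and MTHFD1 and MTHFD1L of the folate cycle. Those that rose were IMPDH1, AMPD2 and GUK1, which act on the guanine and adenine branches after inosine monophosphate, and TYMP, which breaks down thymidine. The median fold change over the 47 members was -0.16, beside -0.01 over all tested genes, and 36 members had a negative value. The 3 SA libraries lay wholly below the 3 vehicle libraries for 18 members and wholly above them for 5, which is 48.9% of the list, where 27.4% of all tested genes were separated in one direction or the other. Without SA replicate 3, 1 member was called higher. The number of members called lower was 6 without vehicle replicate 2 or 3 or SA replicate 1 or 3. All genes called were then 955, 1113, 982 and 954, beside 1531 in the main fit.

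In sgALAS1 cells, 10 members fell, 1 rose and 36 did not pass. That is 23.4% of the tested members, beside 11.7% of all tested genes (4.88% higher and 6.85% lower). The members that fell were CAD, PRPS2, PPAT, PFAS, PAICS, IMPDH2, ADK, ADA, MTHFD1 and SLC25A32, and TYMP rose. The median over the members was -0.19, where the median over all tested genes lay at -0.0034, and 33 members had a negative value. The libraries of the 2 guides were separated for 18 members, 15 lower and 3 higher, which is 38.3% of the list beside 29.1% of all tested genes. The number of members called lower was 6 without sgSCR replicate 2, sgALAS1 replicate 1 or sgALAS1 replicate 3, and 5 without sgSCR replicate 3. All genes called were then 1134, 1148, 1269 and 1415, beside 1622 in the main fit. The number of members called higher was 0 without sgSCR replicate 2, where TYMP missed the threshold, and 2 without sgSCR replicate 3, where PNP passed.

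By step, calls were most frequent in PRPP and purine synthesis, where 7 of 14 genes passed with SA and 5 of 14 with sgALAS1. These are 50% and 35.7%, beside 11.1% and 11.7% of all tested genes. The medians of these 14 genes were -0.19 and -0.25. In salvage and breakdown 4 of 13 (30.8%) and 3 of 13 (23.1%) passed, with medians of -0.08 and -0.02, and both arms held risers and fallers. In folate and methionine metabolism 2 of 10 (20%) passed in each arm, all of them lower, with medians of -0.29 and -0.28. In pyrimidine synthesis 0 of 10 passed by edgeR's test with SA, where 2 had an unadjusted p under 0.05 and DESeq2 also called 0, and 1 of 10 with sgALAS1. The medians there were -0.12 and -0.15. That 1 of 10 (10%) is no more than the 11.7% of all tested genes, and no step was tested as a set.

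**Figure D1:**
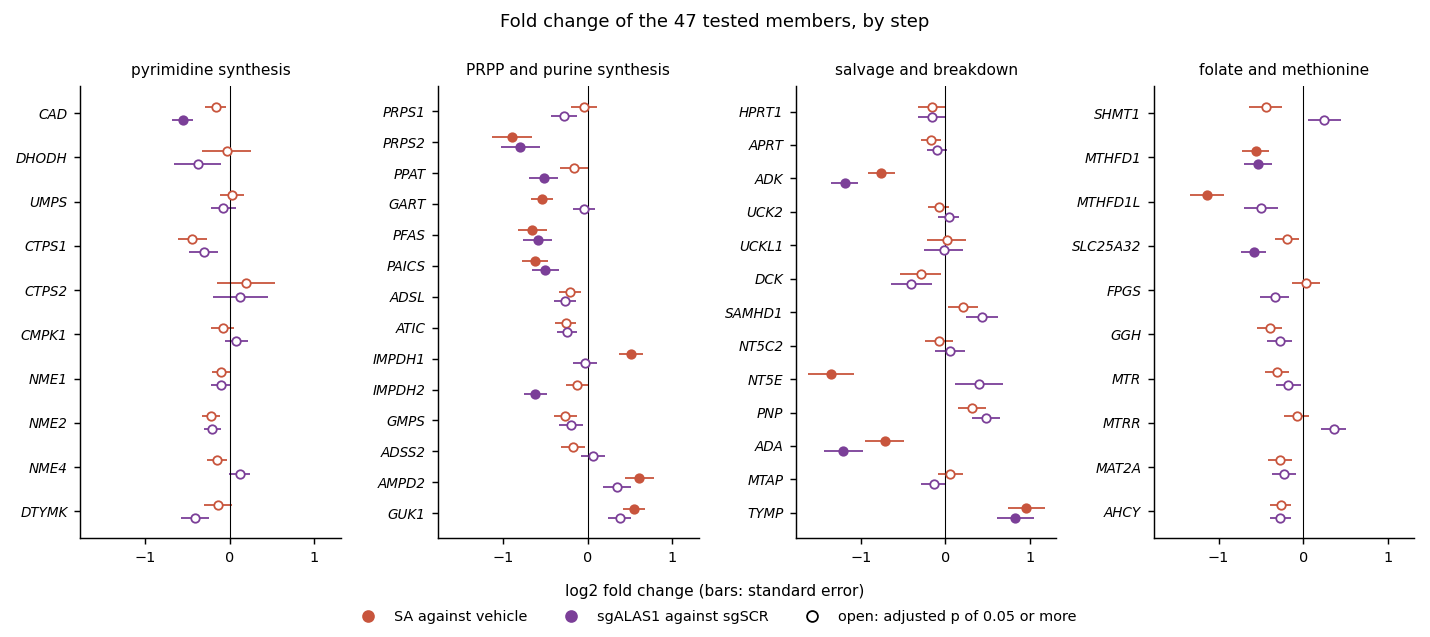
Log2 fold change of each tested member in SA against vehicle and in sgALAS1 against sgSCR, arranged by step, with bars of 1 standard error and filled points where the adjusted p was under 0.05. Most points lie left of 0 in each step, by the smallest margin in salvage and breakdown, and the points of TYMP lie to the right in both arms.

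The arms share no library. Of the members called, 7 were called in both arms and all of these in the same direction: PRPS2, PFAS, PAICS, ADK, ADA and MTHFD1 were lower and TYMP was higher in both. They are 53.8% of the 13 members called with SA and 63.6% of the 11 called with sgALAS1. Over all tested genes, 4 were called in opposite directions and 657 in the same direction, and the latter are 42.9% of the genes called with SA and 40.5% of those called with sgALAS1. GART, IMPDH1, AMPD2, GUK1, NT5E and MTHFD1L passed with SA alone, and CAD, PPAT, IMPDH2 and SLC25A32 with sgALAS1 alone. A pass in 1 arm does not show a difference between arms, and the test of the difference itself passed for 1 of the 47 members, NT5E, which is 2.13% beside 1.19% of all tested genes.

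**Figure D2:**
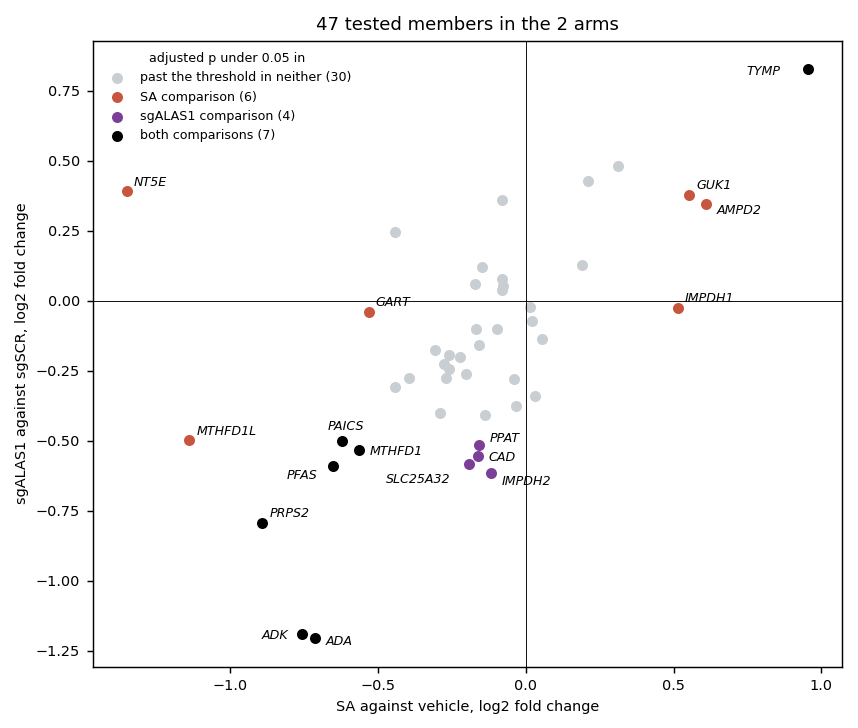
Log2 fold change of the 47 tested members in SA against vehicle (horizontal) and in sgALAS1 against sgSCR (vertical), coloured by the arms in which a member passed an adjusted p of 0.05. The 7 members called in both arms lie at the lower left and upper right, and NT5E lies apart at the upper left.

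PRPP synthesis was described by its 2 main isoforms. PRPS2 (ENSG00000101911, chromosome X) was at 20.8, 24.4 and 20 CPM in vehicle and 13.4, 10.3 and 11.3 CPM in SA. With the guides it was at 14.1, 26.4 and 21.3 CPM in sgSCR and 14.4, 11.4 and 9.75 CPM in sgALAS1. All SA libraries lay below all vehicle libraries, whereas the lowest sgSCR library, replicate 1, lay just under the highest sgALAS1 library. PRPS2 fell by 0.89 (log2, SE 0.23, adjusted p = 0.0112) with SA and by 0.79 (log2, SE 0.23, adjusted p = 0.0228) with sgALAS1. Its paralogue PRPS1 (ENSG00000147224, chromosome X) was at 33.1, 37.9 and 43 CPM in vehicle and 34.8, 43.4 and 32.7 CPM in SA, and at 45.8, 45.2 and 47.8 CPM in sgSCR and 38.1, 39.3 and 37.01 CPM in sgALAS1. The first pair of groups overlapped and the second did not, and neither change of PRPS1 passed, at -0.04 (SE 0.15, adjusted p = 0.917) and -0.28 (SE 0.15, adjusted p = 0.27). Without vehicle replicate 2, the SA call of PRPS2 missed the threshold (adjusted p = 0.0602). Its sgALAS1 call did so without sgSCR replicate 2 (0.194) or 3 (0.061), or without sgALAS1 replicate 2 (0.0675) or 3 (0.105).

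PPAT (ENSG00000128059, chromosome 4), the amidotransferase of the committed first step of purine synthesis, was at 31.6, 38.2 and 36.8 CPM in vehicle and 35.9, 30.2 and 29.3 CPM in SA. In the guide arm PPAT was at 40.2, 34.7 and 44.1 CPM in sgSCR and 28.9, 31.6 and 22.4 CPM in sgALAS1. The vehicle and SA libraries were mixed, and the sgALAS1 libraries lay below the sgSCR libraries. PPAT fell by 0.52 (log2, SE 0.17, adjusted p = 0.0432) with sgALAS1, and its value with SA was -0.16 (SE 0.17, adjusted p = 0.624). The sgALAS1 call of PPAT missed the threshold with no filter on low counts (adjusted p = 0.0689), with DESeq2 (0.0623), with the replicate number as a block (0.0656), and without sgSCR replicate 1 (0.104), sgSCR replicate 3 (0.166), sgALAS1 replicate 1 (0.0863) or sgALAS1 replicate 3 (0.212).

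The next steps are carried by GART, a protein with 3 activities, by PFAS, which acts between 2 of them, and by PAICS, which carries both following activities. GART (ENSG00000159131, chromosome 21) was at 89.2, 94.1 and 88.5 CPM in vehicle and 62.9, 71.8 and 53.5 CPM in SA, without overlap. In the cells with guides it was at 72.3, 83.7 and 85.6 CPM in sgSCR and 79.8, 77.6 and 78.02 CPM in sgALAS1, and the 3 sgALAS1 libraries lay inside the range of sgSCR. GART fell by 0.53 (log2, SE 0.13, adjusted p = 0.0067) with SA and stood at -0.04 (SE 0.13, adjusted p = 0.9) with sgALAS1, and the difference of these effects did not pass, at 0.49 (SE 0.18, adjusted p = 0.237). Exons of GART overlap those of SON on the opposite strand, whose reads were 612% of its own. Exons of 23 members overlap those of another gene in the count table, and for 18 of them that gene had at least 5% of the member's reads. The strand setting of the counting is not given, so the reads of such pairs cannot be told apart. Without SA replicate 3 the call of GART was lost (adjusted p = 0.0725).

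PFAS (ENSG00000178921, chromosome 17) was at 29.7, 33.7 and 37.3 CPM in vehicle and 20.01, 21.9 and 22.05 CPM in SA. Under the guides it was at 35.1, 32.3 and 33.7 CPM in sgSCR and 21.6, 26.9 and 18.4 CPM in sgALAS1. In both arms every treated library lay below every control library. PFAS fell by 0.65 (log2, SE 0.18, adjusted p = 0.0138) with SA and by 0.59 (log2, SE 0.18, adjusted p = 0.0241) with sgALAS1. PAICS (ENSG00000128050, chromosome 4), among the most abundant purine enzymes here, was at 124, 154 and 129.9 CPM in vehicle and 77.5, 88.5 and 98.6 CPM in SA. Among the guide libraries PAICS was at 100.2, 129 and 132 CPM in sgSCR and 81.5, 111 and 62.1 CPM in sgALAS1. The SA libraries lay below vehicle, and the sgALAS1 libraries spread widely, with replicate 2 above the lowest sgSCR library. PAICS fell by 0.62 (log2, SE 0.16, adjusted p = 0.00915) and by 0.50 (log2, SE 0.16, adjusted p = 0.0358). The SA call of PFAS was lost without vehicle replicate 3 (adjusted p = 0.0778) or SA replicate 1 (0.0637), and that of PAICS without vehicle replicate 2 (0.0653) or SA replicate 1 (0.074). In the guide arm PFAS missed the threshold without sgSCR replicate 1 (0.0797), 2 (0.0557) or 3 (0.0587) or without sgALAS1 replicate 1 (0.0863) or 3 (0.134), and PAICS without sgSCR replicate 2 (0.151) or 3 (0.138) or sgALAS1 replicate 1 (0.126) or 3 (0.25).

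The last enzymes before inosine monophosphate did not pass. ADSL, which cleaves off fumarate in purine synthesis and again in AMP synthesis, had values of -0.20 (SE 0.13, adjusted p = 0.347) and -0.26 (SE 0.13, adjusted p = 0.208). ATIC, which closes the ring, was at 125 ± 5.54 CPM in vehicle and 128 ± 10.4 in sgSCR (mean ± SD, n = 3). Its values were -0.26 (SE 0.12, adjusted p = 0.181) and -0.24 (SE 0.12, adjusted p = 0.208). Both genes had negative values in both arms.

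**Figure D3:**
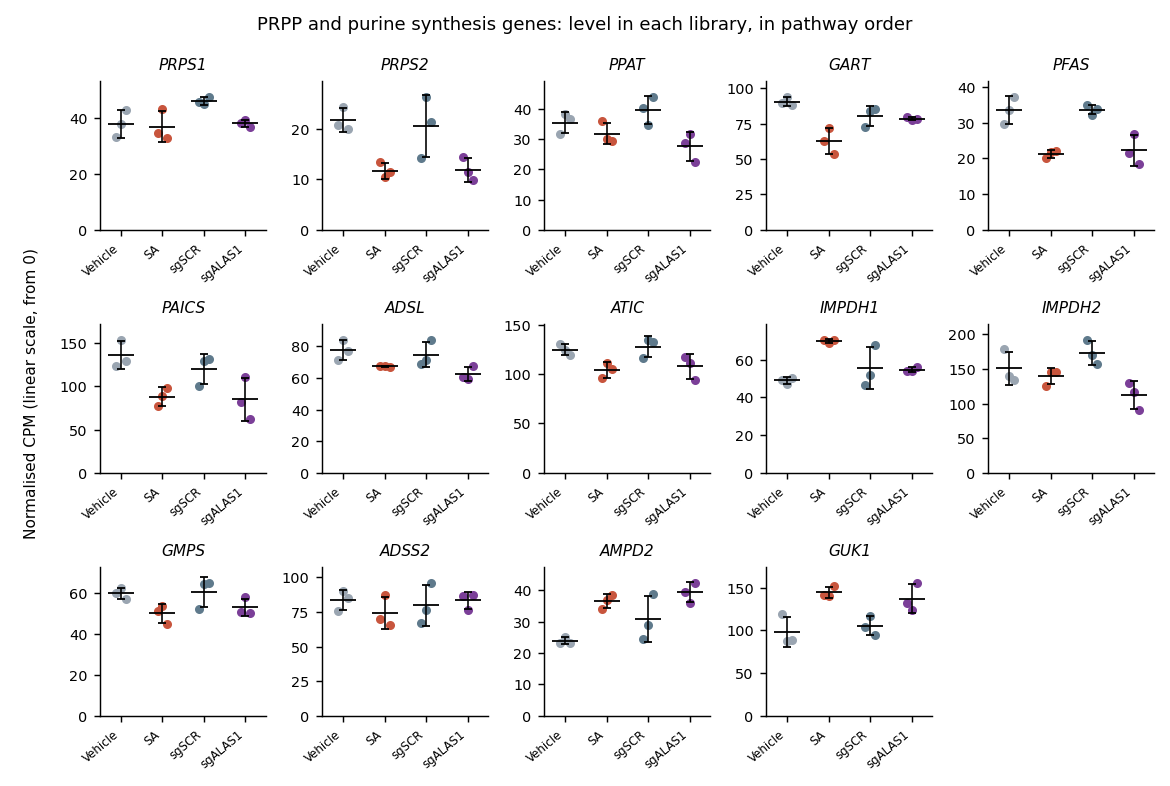
Normalised CPM of PRPP and purine synthesis genes in each of the 12 libraries on linear axes that start at 0, with the mean and SD of the 3 libraries of a group. PFAS lies lower in both treated groups than in their controls, while IMPDH1 is higher in SA than in vehicle and IMPDH2 is lower in sgALAS1 than in sgSCR.

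After inosine monophosphate the route divides. IMPDH1 and IMPDH2 encode isoforms of the enzyme that controls the flow to guanine nucleotides, and each passed in a different arm. IMPDH1 (ENSG00000106348, chromosome 7) was at 49.1, 47.4 and 50.6 CPM in vehicle and 70.7, 69.04 and 70.4 CPM in SA, 2 narrow groups far apart. For the guide groups it was at 46.8, 52.1 and 68.1 CPM in sgSCR and 54.02, 54.2 and 56.3 CPM in sgALAS1, where sgSCR replicate 3 was above all sgALAS1 libraries. IMPDH1 rose by 0.51 (log2, SE 0.14, adjusted p = 0.0152) with SA and was at -0.02 (SE 0.14, adjusted p = 0.946) with sgALAS1. IMPDH2 (ENSG00000178035, chromosome 3), the more abundant isoform here, was at 178, 140.3 and 134 CPM in vehicle and 126, 146 and 146 CPM in SA. With the guides IMPDH2 was at 192, 169.7 and 157 CPM in sgSCR and 129.97, 117 and 91.1 CPM in sgALAS1. The SA and vehicle libraries overlapped, and the sgALAS1 libraries lay below sgSCR. IMPDH2 fell by 0.61 (log2, SE 0.14, adjusted p = 0.00228) with sgALAS1 and was at -0.12 (SE 0.14, adjusted p = 0.653) with SA. The difference of the arms did not pass for IMPDH1, at -0.54 (SE 0.20, adjusted p = 0.234), or for IMPDH2, at -0.50 (SE 0.19, adjusted p = 0.267). The IMPDH1 call was lost without vehicle replicate 2 (adjusted p = 0.0634), SA replicate 1 (0.054) or SA replicate 3 (0.0501), and that of IMPDH2 held in all 12 alternatives run.

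GUK1 (ENSG00000143774, chromosome 1), which phosphorylates GMP to GDP, was at 119, 87.3 and 89.01 CPM in vehicle and 141, 140.3 and 152 CPM in SA. In the guide arm GUK1 was at 104, 117 and 94.9 CPM in sgSCR and 132, 124 and 156 CPM in sgALAS1. Treated libraries lay above the control libraries in both arms. GUK1 rose by 0.55 (log2, SE 0.13, adjusted p = 0.00572) with SA, a call kept in all 12 alternatives, and its value with sgALAS1 was 0.38 (SE 0.13, adjusted p = 0.0599). When only the 6 guide libraries entered the fit, that value passed (adjusted p = 0.0426). AMPD2 (ENSG00000116337, chromosome 1), which deaminates AMP back to inosine monophosphate, was at 23.3, 25.2 and 23.2 CPM in vehicle and 34, 36.8 and 38.6 CPM in SA, without overlap. In the cells with guides it was at 24.5, 28.9 and 38.9 CPM in sgSCR and 39.5, 35.98 and 42.3 CPM in sgALAS1, where sgSCR replicate 3 was above 1 sgALAS1 library. AMPD2 rose by 0.61 (log2, SE 0.17, adjusted p = 0.0187) with SA and was at 0.35 (SE 0.17, adjusted p = 0.2) with sgALAS1. Its call was lost without vehicle replicate 3 (adjusted p = 0.0616) or SA replicate 3 (0.0776). Exons of AMPD2 overlap those of GNAI3 on the same strand, whose reads were 158% of its own. GMPS, which aminates XMP to GMP, and ADSS2, the first enzyme of the AMP branch, did not pass, with values of -0.26 (SE 0.14, adjusted p = 0.251) and -0.17 (SE 0.14, adjusted p = 0.498) for SA and -0.19 (SE 0.14, adjusted p = 0.428) and 0.06 (SE 0.14, adjusted p = 0.854) for sgALAS1.

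Promoter windows of 300 bases (250 before to 50 after an annotated start) were read from RefSeq on GRCh38.p14 and matched 43 of the 48 genes, with 72 windows. No window was matched for MTRR, IMPDH2, SLC25A32, GGH and ADSL. The letters searched were CACGTG, the E-box bound by MYC and related factors, TGATGNAA, the element bound by ATF4 with its partners, and the palindrome of 10 letters bound by NRF1, which is the first run of capitals in the MTHFD1 window printed with the folate genes. Both strands were read, and the E-box and NRF1 motifs are the same on either strand. An E-box was found for 11 of the 43 genes (25.6%), beside 8.77% of 27305 genes with a window, and in 13 of the 72 windows (18.1%), beside 7.26% of all 35116 windows. The 11 genes were AMPD2, ATIC, PPAT, PAICS, DCK, MTHFD1L, FPGS, MTHFD1, DHODH, NME1 and UCKL1. Of these 11, 5 passed in at least 1 arm, PPAT, PAICS, MTHFD1 and MTHFD1L as lower and AMPD2 as higher. In at least 1 arm, 17 of the 47 tested members passed (36.2%) and 2492 of all 13832 tested genes (18%), so nothing is read from the 5 of 11. The ATF4 element was in 1 of the 43 genes, MTHFD1L (2.33% beside 4.46% of all genes), and the NRF1 motif in 1, MTHFD1 (2.33% beside 1.52%). The comparison set holds all genes with a window, was not matched for expression, and no binding was measured.

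PPAT and PAICS are shown because they are neighbours on chromosome 4 that are transcribed away from each other, encode an early and a later enzyme of purine synthesis, and were both lower in sgALAS1. Their nearest annotated starts are 137 bases apart, so 1 E-box lies in the window of each, 182 bases before the PPAT start. The window chr4:56435566-56435865 is printed on the minus strand, in the direction of PPAT, with the E-box in capitals.
PPAT: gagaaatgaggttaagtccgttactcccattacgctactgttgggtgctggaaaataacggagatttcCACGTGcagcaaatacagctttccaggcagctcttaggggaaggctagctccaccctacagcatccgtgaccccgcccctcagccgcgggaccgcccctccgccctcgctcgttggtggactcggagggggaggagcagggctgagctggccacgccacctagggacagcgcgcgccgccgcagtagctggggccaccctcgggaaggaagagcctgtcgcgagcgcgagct

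In pyrimidine synthesis, CAD (ENSG00000084774, chromosome 2), the protein with the first 3 activities of the route, was at 62.8, 65.2 and 65.7 CPM in vehicle and 56.3, 57.1 and 59.5 CPM in SA. Under the guides it was at 79.9, 80.8 and 80.7 CPM in sgSCR and 57.3, 53.2 and 53.9 CPM in sgALAS1. Its libraries were tightly grouped and separated in both arms, and the sgSCR libraries were the highest of all 12. CAD fell by 0.55 (log2, SE 0.12, adjusted p = 0.00255) with sgALAS1, a call kept in all 12 alternatives, and was at -0.16 (SE 0.12, adjusted p = 0.463) with SA. The difference between the arms did not pass, at -0.39 (SE 0.18, adjusted p = 0.361). The higher level in sgSCR than in vehicle did not pass either, at 0.32 (SE 0.12, adjusted p = 0.229), in a comparison where 1.43% of all tested genes passed. The remaining steps to uridine monophosphate are DHODH, the mitochondrial dehydrogenase, and UMPS, which joins the ring to PRPP. DHODH was low, at 8.09 ± 2.03 CPM in vehicle and 12.5 ± 1.42 in sgSCR, and UMPS was at 50.4 ± 5.67 and 52.4 ± 0.496. With SA their values were -0.03 and 0.02, and with sgALAS1 -0.38 and -0.07, and none of the 4 passed.

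CTPS1 (ENSG00000171793, chromosome 1), the CTP synthetase that proliferating lymphoid cells are known to need, was at 40.3, 42.99 and 52.4 CPM in vehicle and 29.5, 33.2 and 36.8 CPM in SA. Among the guide libraries CTPS1 was at 36.9, 46.6 and 53.6 CPM in sgSCR and 38.9, 43.1 and 28.6 CPM in sgALAS1. The SA libraries lay below the vehicle libraries without passing the test, at -0.44 (SE 0.17, adjusted p = 0.101), and the guide groups overlapped, at -0.31 (SE 0.17, adjusted p = 0.282). CTPS2, its low isoform, was at 4.66 ± 0.9096 CPM in vehicle and had positive values in both arms, 0.19 (SE 0.34, adjusted p = 0.798) and 0.13 (SE 0.32, adjusted p = 0.864). The nucleotide kinases CMPK1, NME1, NME2 and NME4 lay between -0.22 and -0.08 with SA and between -0.20 and 0.12 with sgALAS1, and none passed. NME2 was the most abundant member, at 584 ± 29.98 CPM in vehicle, but its reads were 100% to 101% of those of the readthrough gene NME1-NME2 in every library, as when the same reads are counted for both. DTYMK, which phosphorylates dTMP, was at -0.14 (SE 0.16, adjusted p = 0.673) with SA and -0.41 (SE 0.17, adjusted p = 0.114) with sgALAS1. Without sgALAS1 replicate 2 the second value was -0.59 and passed (adjusted p = 0.0352).

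Among salvage enzymes, ADK and ADA gave the largest falls of the 47 tested members in sgALAS1 cells. ADK (ENSG00000156110, chromosome 10), which phosphorylates adenosine to AMP, was at 45.5, 44.2 and 50.4 CPM in vehicle and 26.4, 30.8 and 25.6 CPM in SA. For the guide groups it was at 45.8, 54.8 and 42.8 CPM in sgSCR and 22.2, 21.8 and 18.6 CPM in sgALAS1. Groups were separated in both arms, and the sgALAS1 libraries held the lowest levels of all 12. ADK fell by 0.76 (log2, SE 0.16, adjusted p = 0.00154) with SA and by 1.19 (log2, SE 0.16, adjusted p = 3.55e-06) with sgALAS1, and both calls were kept in all alternatives. ADA (ENSG00000196839, chromosome 20), which deaminates adenosine and deoxyadenosine, was at 22.8, 14.4 and 19.6 CPM in vehicle and 8.74, 12.7 and 13.1 CPM in SA. With the guides ADA was at 31.1, 29.3 and 22.8 CPM in sgSCR and 10.96, 14.5 and 10.4 CPM in sgALAS1. Treated libraries lay below control libraries in both arms. ADA fell by 0.71 (log2, SE 0.23, adjusted p = 0.042) with SA and by 1.21 (log2, SE 0.23, adjusted p = 0.000397) with sgALAS1. The sgALAS1 call of ADA was kept in all alternatives. The SA call was lost with a replicate block (adjusted p = 0.0552), with only the compared groups in the fit (0.0675), with DESeq2 (0.07), and without vehicle replicate 1 (0.174) or 3 (0.109) or SA replicate 1 (0.202), 2 (0.0544) or 3 (0.0599). The difference of the arms did not pass for ADK, at -0.43 (SE 0.23, adjusted p = 0.467), or ADA, at -0.49 (SE 0.32, adjusted p = 0.593).

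TYMP (ENSG00000025708, chromosome 22), the thymidine phosphorylase, was the one member called higher in both arms. It was at 16.8, 14.7 and 16.1 CPM in vehicle and 22.5, 29.05 and 40.7 CPM in SA. In the guide arm TYMP was at 18.1, 12.5 and 18.5 CPM in sgSCR and 29.3, 23.6 and 34.4 CPM in sgALAS1. Every treated library lay above every control library, and SA replicate 3 was the highest of all 12. TYMP rose by 0.96 (log2, SE 0.22, adjusted p = 0.00319) with SA and by 0.83 (log2, SE 0.22, adjusted p = 0.0101) with sgALAS1. The first call was lost without SA replicate 3 (adjusted p = 0.0604), and the second without sgSCR replicate 2 (0.0834) or sgALAS1 replicate 3 (0.0578). TYMP overlaps ODF3B on the same strand, whose reads were 17% of its own. The myeloid sum given above was also higher in both treated groups, and its part in the TYMP values was not tested. UPP1 (ENSG00000183696, chromosome 7), the uridine phosphorylase and the untested member, had 6, 9 and 1 reads in vehicle, 1, 2 and 10 in SA, 1, 2 and 8 in sgSCR, and 7, 29 and 17 in sgALAS1. It did not pass the filter on low counts and was not tested.

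NT5E (ENSG00000135318, chromosome 6), the surface enzyme CD73 that converts extracellular AMP to adenosine, stood apart from the other members. It was at 15.03, 19.3 and 18.8 CPM in vehicle and 6.41, 7.36 and 6.97 CPM in SA. In the cells with guides NT5E was at 5.18, 8.197 and 7.61 CPM in sgSCR and 10.03, 11.3 and 6.21 CPM in sgALAS1. The vehicle libraries alone were high, and the sgSCR libraries were as low as the SA libraries. NT5E fell by 1.35 (log2, SE 0.27, adjusted p = 0.00109) with SA, a call kept in all alternatives, and was at 0.39 (SE 0.28, adjusted p = 0.428) with sgALAS1. The effects of the arms differed by 1.74 (SE 0.39, adjusted p = 0.015). The 2 control groups themselves also differed, with sgSCR below vehicle by 1.32 (log2, SE 0.27, adjusted p = 0.0061), 1 of 47 members (2.13%) called in a comparison that shares controls with both arms and in which 1.43% of all tested genes passed. The test of the arms was lost without vehicle replicate 2 (adjusted p = 0.0603), sgSCR replicate 1 (0.0625), sgALAS1 replicate 1 (0.0565) or sgALAS1 replicate 2 (0.0693), and that of the controls without sgSCR replicate 1, at -1.16 (0.0672).

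HPRT1 (ENSG00000165704, chromosome X), which salvages hypoxanthine and guanine, was at 43.4, 38.8 and 50.1 CPM in vehicle and 44.5, 35.2 and 38.7 CPM in SA. Under the guides it was at 40.4, 54.97 and 46.8 CPM in sgSCR and 31.95, 47.4 and 48.8 CPM in sgALAS1. The groups overlapped in both arms, at -0.16 (SE 0.17, adjusted p = 0.627) and -0.16 (SE 0.17, adjusted p = 0.627). APRT, which salvages adenine, was the most abundant salvage enzyme, at 175 ± 22.1 CPM in vehicle, and was at -0.17 and -0.10, without a call. PNP, which releases bases from inosine and guanosine, was at 47.3 ± 9.58 CPM in vehicle, 58.6 ± 1.46 in SA, 43.5 ± 9.504 in sgSCR and 60.9 ± 10.6 in sgALAS1. Its values were 0.31 (SE 0.17, adjusted p = 0.251) and 0.48 (SE 0.17, adjusted p = 0.0608), and the second passed with no filter on low counts (adjusted p = 0.0469) and without sgSCR replicate 3 (0.0235) or sgALAS1 replicate 3 (0.0434). PNP lies over an opposite-strand gene with nearly as many reads, AL355075.3. SAMHD1, which degrades deoxynucleotides, was at 0.21 (SE 0.18, adjusted p = 0.529) and 0.43 (SE 0.19, adjusted p = 0.145). UCK2 and UCKL1, uridine and cytidine kinases, DCK, the deoxycytidine kinase that activates cytarabine, MTAP, which salvages the methylthioadenosine of polyamine synthesis, and NT5C2, a cytosolic nucleotidase, lay between -0.29 and 0.05 with SA and between -0.40 and 0.05 with sgALAS1, and none of these 5 passed. NT5C2 had 87.0% to 109% of the reads of CNNM2, which overlaps it on the opposite strand.

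**Figure D4:**
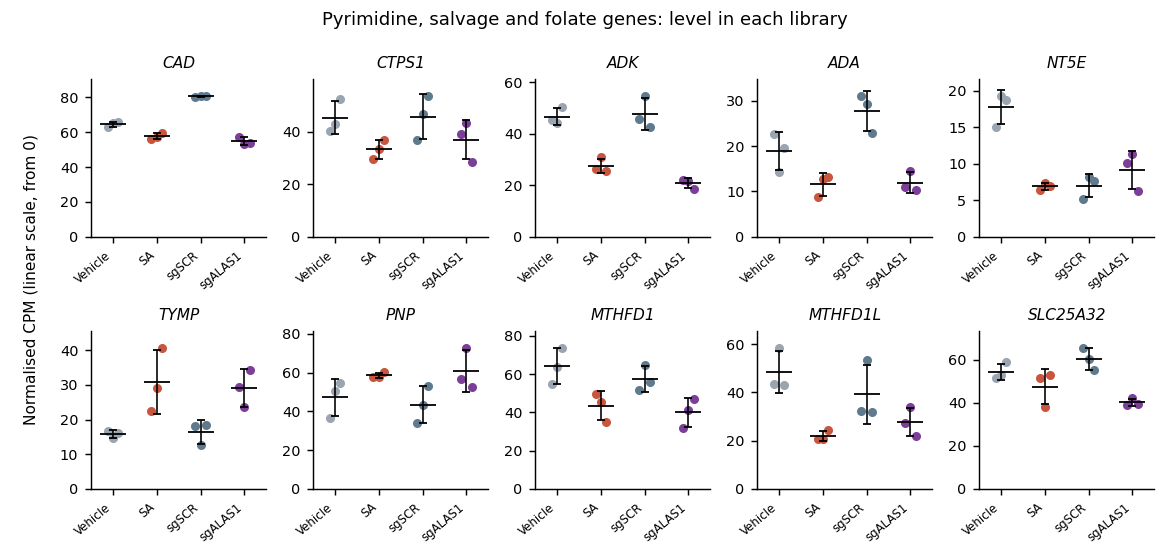
Normalised CPM of pyrimidine, salvage and folate genes in each of the 12 libraries on linear axes from 0, with the mean and SD of 3 libraries. ADK and ADA are lower and TYMP is higher in both treated groups, and NT5E is high in vehicle alone.

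The folate cycle was represented by cytosolic and mitochondrial enzymes. MTHFD1L (ENSG00000120254, chromosome 6), the mitochondrial enzyme that releases formate for purine and thymidylate synthesis, was at 43.7, 58.6 and 43 CPM in vehicle and 20.6, 20.7 and 24.5 CPM in SA. Among the guide libraries it was at 32.3, 53.4 and 31.9 CPM in sgSCR and 27.3, 33.8 and 21.9 CPM in sgALAS1. The SA libraries lay far below vehicle, and the guide groups overlapped, with sgSCR replicate 2 well above the other two sgSCR libraries. MTHFD1L fell by 1.14 (log2, SE 0.20, adjusted p = 0.000208) with SA, which was kept in all alternatives and was the smallest adjusted p of the list in that arm. With sgALAS1 it was at -0.50 (SE 0.20, adjusted p = 0.103), and the difference of the arms did not pass, at 0.64 (SE 0.28, adjusted p = 0.348). MTHFD1 (ENSG00000100714, chromosome 14), the cytosolic enzyme that charges folate with that formate, was at 54.8, 63.97 and 73.8 CPM in vehicle and 49.7, 45.6 and 35.02 CPM in SA. For the guide groups MTHFD1 was at 51.8, 64.8 and 55.9 CPM in sgSCR and 31.8, 41.1 and 46.99 CPM in sgALAS1. Neither arm showed overlap, although the gaps were small. MTHFD1 fell by 0.56 (log2, SE 0.16, adjusted p = 0.0229) with SA and by 0.53 (log2, SE 0.17, adjusted p = 0.0321) with sgALAS1. The SA call was lost without vehicle replicate 2 (adjusted p = 0.0617), vehicle replicate 3 (0.134) or SA replicate 3 (0.167), and the sgALAS1 call without sgSCR replicate 2 (0.178) or 3 (0.0601) or sgALAS1 replicate 1 (0.206) or 2 (0.0617).

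These genes are printed because they are the 2 ends of the formate route and, within the list, the only genes with the ATF4 element and the NRF1 motif. The MTHFD1L window chr6:150866236-150866535 (plus strand, GRCh38.p14) holds an E-box that starts 154 bases before the annotated start and the ATF4 element 129 bases before it. The MTHFD1 window chr14:64388103-64388402 (plus strand) holds the NRF1 motif 97 bases and an E-box 15 bases before the start. Capitals mark these motifs, which do not overlap.
MTHFD1L: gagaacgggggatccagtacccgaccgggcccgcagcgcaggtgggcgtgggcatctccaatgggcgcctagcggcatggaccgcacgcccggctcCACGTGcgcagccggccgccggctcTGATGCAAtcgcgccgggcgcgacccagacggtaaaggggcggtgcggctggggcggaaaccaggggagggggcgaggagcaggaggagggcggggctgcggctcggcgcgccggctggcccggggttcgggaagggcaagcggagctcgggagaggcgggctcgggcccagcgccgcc
MTHFD1: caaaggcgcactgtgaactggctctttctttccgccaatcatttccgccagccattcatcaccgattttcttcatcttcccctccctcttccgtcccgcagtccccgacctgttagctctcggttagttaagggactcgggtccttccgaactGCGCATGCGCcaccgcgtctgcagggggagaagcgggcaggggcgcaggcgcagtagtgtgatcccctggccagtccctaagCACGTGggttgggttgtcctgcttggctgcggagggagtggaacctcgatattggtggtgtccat

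SLC25A32 (ENSG00000164933, chromosome 8), the carrier that brings folate into mitochondria, was at 51.6, 52.8 and 58.8 CPM in vehicle and 51.3, 38 and 53.02 CPM in SA. With the guides it was at 65.5, 60.3 and 55.4 CPM in sgSCR and 39.1, 42.2 and 39.5 CPM in sgALAS1. The SA and vehicle libraries overlapped, and the sgALAS1 libraries lay together below sgSCR. SLC25A32 fell by 0.59 (log2, SE 0.15, adjusted p = 0.0074) with sgALAS1, which was kept in all alternatives, and was at -0.19 (SE 0.15, adjusted p = 0.452) with SA. The 471 tested genes of chromosome 8 had a median of -0.34 with sgALAS1 and -0.25 with SA, beside 0.0068 and -0.0010 over the other chromosomes, and the part of this shift in the values of SLC25A32 and GGH was not tested. SLC25A32 also overlaps DCAF13 on the opposite strand, with a similar number of reads. GGH, which removes glutamates from folate and lies on the same chromosome, was at -0.40 (SE 0.15, adjusted p = 0.0767) and -0.28 (SE 0.15, adjusted p = 0.241). FPGS, which adds glutamates, was at 0.03 (SE 0.17, adjusted p = 0.945) and -0.34 (SE 0.17, adjusted p = 0.212), and SHMT1, the cytosolic serine hydroxymethyltransferase, at -0.44 (SE 0.20, adjusted p = 0.154) and 0.25 (SE 0.20, adjusted p = 0.484). None of these 3 passed.

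In the methionine cycle none of the 4 members passed. MAT2A (ENSG00000168906, chromosome 2), which makes S-adenosylmethionine, was at 121, 183 and 173 CPM in vehicle and 118, 141 and 136 CPM in SA. In the guide arm MAT2A was at 125, 125 and 158 CPM in sgSCR and 110.4, 134 and 105 CPM in sgALAS1. Groups overlapped in both arms, at -0.28 (SE 0.14, adjusted p = 0.233) and -0.23 (SE 0.14, adjusted p = 0.349). Without vehicle replicate 1, the lowest of its group, the first value was -0.44 and passed (adjusted p = 0.0339). MAT2A reads were 86.3% to 96.6% of those of GGCX, an overlapping gene on the opposite strand, so its level cannot be told apart from that gene's. MTR, the methionine synthase, was at -0.31 (SE 0.14, adjusted p = 0.171) and -0.18 (SE 0.14, adjusted p = 0.497), and AHCY, which clears S-adenosylhomocysteine, at -0.27 (SE 0.12, adjusted p = 0.17) and -0.27 (SE 0.12, adjusted p = 0.16). MTRR, which keeps MTR active, was at -0.08 (SE 0.14, adjusted p = 0.8) and 0.36 (SE 0.15, adjusted p = 0.11).

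Where 2 isoforms serve 1 step, the share of the pair's reads was compared as a description, since an exact permutation test of 3 against 3 libraries cannot give a p below 0.10. PRPS1 took 63.5% ± 4.13 (SD, n = 3) of the PRPS1 and PRPS2 reads in vehicle and 75.7% ± 4.47 in SA, and 69.6% ± 6.64 in sgSCR and 76.4% ± 3.37 in sgALAS1. The ranges of vehicle and SA were apart, 60.9% to 68.3% and 72.2% to 80.7%, and those of the guides overlapped. IMPDH1 took 24.7% ± 2.93 of its pair in vehicle and 33.5% ± 2.11 in SA, and 24.4% ± 5.40 in sgSCR and 33.1% ± 4.59 in sgALAS1. Again the ranges were apart for SA (21.6% to 27.4% and 32.1% to 35.97%) and overlapped for the guides (19.6% to 30.2% and 29.4% to 38.2%). In the SA arm IMPDH1 itself was higher, and in the guide arm IMPDH2 was lower. CTPS1 held 90.7% ± 0.876 of its pair in vehicle, 86.2% ± 2.46 in SA, 86.0% ± 3.21 in sgSCR and 82.0% ± 2.69 in sgALAS1. The NME1 share was between 19.3% and 23.4% in the 4 group means. Exons of both NME1 and NME2 overlap those of the readthrough gene NME1-NME2, so this share is not a clean split of 2 isoforms. For CTPS1 the vehicle range (90.1% to 91.7%) lay above the SA range (83.5% to 88.4%), and for NME1 the vehicle range (21.7% to 21.97%) lay below it (23.2% to 23.7%). In each of the 4 pairs the SA and vehicle ranges were thus apart and the guide ranges overlapped. The group means moved in the same direction in both arms in all 4 pairs, and the sgSCR shares were more spread than the vehicle shares. Overlap in the guide arm therefore does not show a difference between the arms, which was not tested for shares. Among single genes, 27.4% were separated with SA and 29.1% with sgALAS1, and no such share was computed for other pairs.

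**Figure D5:**
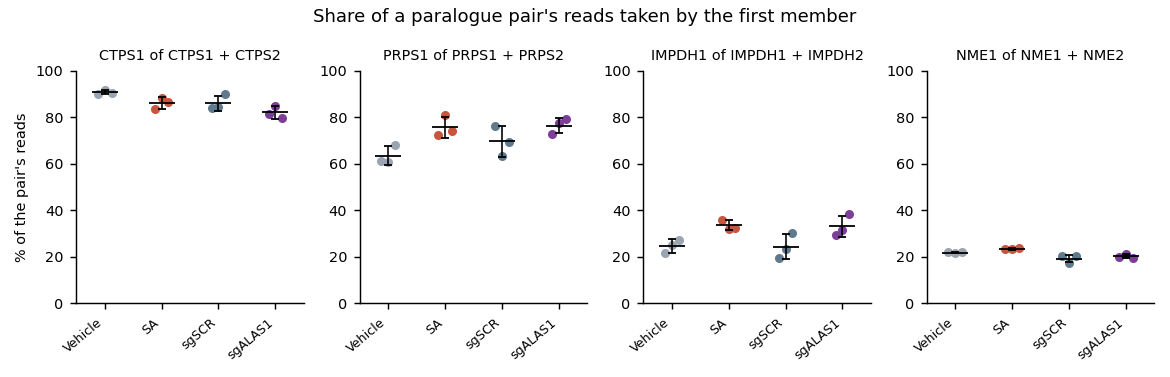
Percent of a pair's reads taken by the first gene named, in each of the 12 libraries, with the mean and SD of 3 libraries, on axes from 0 to 100. The PRPS1, IMPDH1 and NME1 shares are higher and the CTPS1 share is lower in SA than in vehicle without overlap. The guide groups overlap in all 4 pairs, with means that moved in the same direction as in the SA arm.

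Beyond the 48 genes, 84 further genes of the same pathways were listed, of which 68 were tested. With SA 18 fell and 1 rose, with a median of -0.25 beside -0.01 over all tested genes. With sgALAS1 13 fell and 2 rose, with a median of -0.12 beside -0.0034. Of all tested genes, 6.24% were called lower and 4.83% higher with SA, and 6.85% and 4.88% with sgALAS1. No list was tested as a set. Of 15 tested folate, serine and glycine genes, 6 fell with SA (40%) and 2 with sgALAS1 (13.3%). PSAT1 and PHGDH of serine synthesis were at -1.84 (adjusted p = 9.87e-07) and -1.73 (3.78e-06) with SA and at -0.99 (0.0025) and -0.59 (0.0808) with sgALAS1, and PSPH of the same route at -1.16 (9.09e-05) and -0.55 (0.0686). MTHFD2, which precedes MTHFD1L in mitochondria, was at -0.97 (7.45e-05) and -0.41 (0.0929), and ALDH1L2 at -1.59 (0.000153) and -0.82 (0.0482). In the methionine list, 2 of 13 (15.4%) fell in each arm, and CTH, which makes cysteine from cystathionine, was at -2.12 (0.000239) and -1.17 (0.0378). With DESeq2, the sgALAS1 calls of PSAT1 (adjusted p = 0.061), ALDH1L2 (0.0872) and CTH (0.0671) missed the threshold. ALDH1L2 also missed it without sgSCR replicate 2 (0.284) or 3 (0.0616) or sgALAS1 replicate 2 (0.217) or 3 (0.0727), and CTH without sgSCR replicate 2 (0.147) or 3 (0.0689) or sgALAS1 replicate 1 (0.145) or 2 (0.12). PHGDH passed with sgALAS1 when only the compared groups were fitted (0.00946), with no filter (0.00151), with a replicate block (0.0161) and without sgSCR replicate 1 (0.0428), and MTHFD2 in the same order with 0.0382, 0.0225 and, without sgSCR replicate 1, 0.0352. Vehicle libraries of these genes were spread, with PSAT1 at 319, 446 and 192 CPM. The sgSCR libraries lay lower for PSPH and MTHFD2, at -0.85 (0.0117) and -0.60 (0.0469) against vehicle. The first of these was lost without vehicle replicate 2 (0.191) or sgSCR replicate 1 (0.0793) or 3 (0.0627). The second was lost with only the compared groups in the fit (0.0823) and without vehicle replicate 1 (0.0679) or 2 (0.368) or sgSCR replicate 1 (0.308) or 3 (0.128).

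Of 22 other pyrimidine and deoxynucleotide genes, 4 fell and 1 rose with SA (22.7%), and 6 fell and 1 rose with sgALAS1 (31.8%). Over all tested genes, 11.1% and 11.7% passed. TYMS, the thymidylate synthase, fell in both arms, by 0.77 (adjusted p = 0.000871) with SA and 1.06 (1.4e-05) with sgALAS1. Of 18 other purine genes, 6 fell with SA (33.3%), and 3 fell and 1 rose with sgALAS1 (22.2%). AK3, a mitochondrial adenylate kinase family member, was at -0.79 (0.00191) and -1.16 (1.01e-05). Its relative AK4 was at -0.94 (0.00106) and 0.17 (0.662), and its sgSCR libraries lay below vehicle, at -0.81 (0.018), a call lost without vehicle replicate 2 (0.21) or sgSCR replicate 1 (0.108) or 3 (0.0731). SLC29A2, a nucleoside transporter, had 50 to 87 reads in the vehicle libraries, 11 to 16 in SA, 71 to 108 in sgSCR and 0 in each of the 3 sgALAS1 libraries. It fell by 1.99 (log2, SE 0.36, adjusted p = 0.000348) with SA and was at least 84.6-fold lower in sgALAS1 than in sgSCR, against a floor of 3 reads over the group, which covers counting error only.

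Regulators of these pathways were measured in the same libraries. MYC, which activates many nucleotide synthesis genes, was at 116, 121 and 89.4 CPM in vehicle and 40.6, 57.3 and 55.8 CPM in SA, and at 92.8, 111 and 89.3 CPM in sgSCR and 58.8, 50.3 and 44.5 CPM in sgALAS1. Treated libraries lay below controls in both arms, and MYC fell by 1.09 (log2, SE 0.15, adjusted p = 8.66e-06) with SA and by 0.92 (log2, SE 0.15, adjusted p = 6.75e-05) with sgALAS1. ATF4, which activates serine and mitochondrial folate genes under amino acid stress, was at 466, 533 and 303 CPM in vehicle and 213, 228 and 189 CPM in SA. In the cells with guides ATF4 was at 204, 314 and 276 CPM in sgSCR and 200.04, 204 and 166 CPM in sgALAS1. Its vehicle libraries spread widely, with replicate 3 the lowest, and its level was lower in sgSCR than in vehicle, at -0.71 (SE 0.16, adjusted p = 0.0111). ATF4 fell by 1.05 (log2, SE 0.16, adjusted p = 2.62e-05) with SA and by 0.47 (log2, SE 0.16, adjusted p = 0.0476) with sgALAS1. The second call was lost with DESeq2 (adjusted p = 0.0522) and without any 1 of 5 guide libraries, sgSCR replicate 2 (0.293) or 3 (0.125) or sgALAS1 replicate 1 (0.0891), 2 (0.0576) or 3 (0.197). The control difference was lost without vehicle replicate 2 (0.154) or sgSCR replicate 1 (0.14). Of 20 proliferation genes, 6 fell with SA (30%) and 8 with sgALAS1 (40%), and none rose. Of all tested genes, 6.24% and 6.85% were called lower. The proliferation list holds TYMS, RRM2 and TK1, which are also among the other pyrimidine and deoxynucleotide genes above, so these lists are not independent. The proliferation list summed to 3487 to 3905 CPM in vehicle, 3240 to 3425 in SA, 3624 to 3799 in sgSCR and 2892 to 3064 in sgALAS1. The part of MYC, of ATF4 and of the proliferation genes in the values of the members was not tested.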

How the data were processed

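Polyadenylated RNA of 12 libraries was sequenced as single 3′-end reads, per the labels' protocols. The submitters' processing notes name bcl2fastq 2.17.1.14, cutadapt 1.14, HISAT2 2.0.4, hg19, featureCounts of Subread 2.0.0, edgeR 3.34.0 and limma 3.48.3. No source used here gives the annotation, the strand setting or the handling of multi-mapped and overlapping reads. The deposited values are raw counts per Ensembl identifier, without normalisation by the authors. A current gene table named 51996 identifiers and GENCODE 29 another 342.

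Counts were analysed in R 4.3.3 with edgeR 4.0.16 (TMM, filterByExpr by group with a minimum count of 10, quasi-likelihood F-test, two-sided) in 1 fit of all 12 libraries by group, with Benjamini-Hochberg adjustment over 13832 identifiers. The biological coefficient of variation was 16.4%, and an SE is the fold change divided by the square root of F. Totals were 4658513 to 7339843 reads, so low genes such as UPP1 are imprecise. The fit was tested on simulated data. The contrasts were SA minus vehicle, sgALAS1 minus sgSCR, their difference, and sgSCR against vehicle. The numbers of the replicates were not used as pairs, since residuals of same-numbered libraries correlated at -0.0808 to 0.0750, within the range of other pairs. Alternatives were RLE size factors, no filter on low counts, a replicate block, only the compared groups, no mitochondrial genes and top identifier, DESeq2 1.42.0, and leaving out each library.

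The members, the further lists, the tests and the naming rule were chosen with earlier results of these data known. Values per library are given for members past the threshold in SA, sgALAS1 or their difference, and for CAD, CTPS1, PRPS1, PPAT, IMPDH2, HPRT1 and MAT2A, with the 12 further pathway genes of the smallest p, ALAS1, MYC and ATF4 beside them. Of those 12, some are not reported here. Other genes were named after their values were seen. Promoter windows are RefSeq's on GRCh38.p14 and were used for sequence only.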

Additional observations from a re-analysis of the deposited data

Results flagged for a closer look

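The 47 tested members, the 68 tested further pathway genes and 4 listed regulators, with ALAS1, MYC and ATF4 among them, were searched. In 5 of these genes the effect of sgALAS1 differed from that of SA by the edgeR test of the difference itself. It is given as the sgALAS1 effect minus the SA effect on the log2 scale. Over all 13832 tested genes, 164 (1.19%) passed that test. For NT5E the difference was 1.74 (adjusted p = 0.015), with a fall in SA and overlapping guide groups. AK4, an adenylate kinase family member of mitochondria, differed by 1.11 (0.0299), as it fell with SA and was at 0.17 (0.662) with sgALAS1, and this was lost without vehicle replicate 2 (0.163), SA replicate 1 (0.0763) or 3 (0.136), sgSCR replicate 1 (0.0956) or 3 (0.0727), or sgALAS1 replicate 1 (0.129). MMACHC, which processes vitamin B12, differed by -0.74 (0.0216), at 0.21 (0.294) with SA and -0.53 (0.00363) with sgALAS1, and this was lost without vehicle replicate 2 (0.101), SA replicate 1 (0.109), sgSCR replicate 1 (0.0994) or sgALAS1 replicate 1 (0.0746). SLC29A2 differed by -7.50 (4.43e-05), a fitted value that depends on the prior count, since all 3 sgALAS1 libraries had 0 reads. ALAS1 differed by -2.16 (1.14e-08), as it rose by 1.60 with SA and fell by 0.56 with sgALAS1, where it is the targeted gene. With 3 libraries a group, no library was tested as an outlier.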

How the results depend on the processing

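Of the 13 members called with SA, ADK, GUK1, MTHFD1L and NT5E kept their call in all 12 alternatives, and of the 11 called with sgALAS1, ADA, ADK, CAD, IMPDH2 and SLC25A32 did; the other calls are given with their losses above, and the causes of these losses were not tested. No called member changed sign. Of the members not called, 1 of 34 passed somewhere with SA and 3 of 36 with sgALAS1. With SA, leaving out 1 library gave 1 to 4 members called higher, 6 to 9 lower and 954 to 1595 genes in all. With sgALAS1 it gave 0 to 2 higher, 5 to 9 lower and 1134 to 1415 in all; 2 members were called higher with no filter on low counts and 2 with only the groups compared. For the difference of the arms it gave 0 to 1 members higher and 109 to 340 genes in all, and 277 genes passed with no filter on low counts. For sgSCR against vehicle it gave 0 to 1 members lower and 84 to 276 genes in all.

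Small values without a call changed sign when 1 library was left out. With SA they ranged from -0.20 to 0.0028 for CMPK1, -0.19 to 0.18 for DHODH, -0.089 to 0.30 for FPGS, -0.19 to 0.024 for IMPDH2, -0.10 to 0.13 for MTAP, -0.17 to 0.062 for PRPS1, -0.25 to 0.21 for UCKL1 and -0.044 to 0.12 for UMPS. With sgALAS1 they ranged from -0.049 to 0.22 for ADSS2, -0.0078 to 0.16 for CMPK1, -0.11 to 0.0080 for GART, -0.26 to 0.014 for HPRT1, -0.13 to 0.15 for IMPDH1, -0.053 to 0.17 for NT5C2, -0.0088 to 0.10 for UCK2, -0.072 to 0.048 for UCKL1 and -0.16 to 0.021 for UMPS.

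With the replicate block, 4 members were higher and 8 lower with SA (1468 genes called) and 1 higher and 9 lower with sgALAS1 (1564), and UCKL1 with SA turned to -0.011. The block ended the calls of ADA with SA and PPAT with sgALAS1 and no other member's. Same-numbered libraries did not deviate together (residual correlations of -0.0808 to 0.0750). Depth limits the genes with few reads: CTPS2, at 4.66 CPM in vehicle, had SEs of 0.34 and 0.32, and DHODH, at 8.09 CPM, of 0.29 and 0.28.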
